A study of Mus musculus with 3 samples.

Results

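The genes described here are the Vgll and Tead families together with Yap1 and Wwtr1, the gene of TAZ, as measured in cardiac myofibroblasts, the contractile and matrix-producing cells of the injured heart. Array probes were taken as belonging to these genes when the transcript printed for the probe carried a RefSeq name of Vgll2, Vgll3, Vgll4, Tead1, Tead2, Tead3, Tead4, Yap1 or Wwtr1. This gave 12 probes of 55665 on the array, for all 9 genes of the 15393 genes with a named probe above background. The cells came from male C57BL/6J mice, given as 8 weeks old in one label and as 10 weeks old in another, in which an infarct was made by tying off the left anterior descending artery for good, and the hearts were taken 3 days later. Heart cells that attached to plastic overnight and lacked CD45, a leukocyte surface protein, were defined as myofibroblasts in all 3 states. Adherent cells were cultured on plastic plates, non-adherent cells were moved from plates into suspension, and re-adherent cells were returned from suspension to plates. Each state had 1 array of RNA mixed from several hearts, so no difference below has a replicate check or a p-value. The states were collected one after another, so state and time in culture cannot be told apart. The study reports that cell number fell in suspension through death of detached cells, and that the remaining cells were replated. Survival of some cells and a change within cells can therefore not be told apart either.

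TEAD proteins are transcription factors that bind DNA but depend on partner proteins to act on genes. YAP and TAZ are coactivators that bind TEADs in the nucleus. The Hippo kinases phosphorylate YAP and TAZ and keep them in the cytoplasm, and attachment to a stiff surface favours their entry into the nucleus. Vestigial-like proteins also bind TEADs through a short motif. VGLL4 competes with YAP for TEAD, VGLL2 is known from skeletal muscle, and VGLL3 is the cofactor that the study went on to examine in fibrosis. The comparison of the 3 states asks which of these genes follow the attachment of the cells.

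In suspension, 7 of the 9 genes were over 2-fold lower than in adherent cells, namely Vgll3, all 4 Tead genes, Yap1 and Wwtr1, and 1 gene, Vgll4, was over 2-fold higher. Over all genes, these shares were 14.7% lower and 17.2% higher. After re-adhesion the same 7 genes were over 2-fold higher than in suspension, against 15.6% of all genes, and 2 were over 2-fold lower, against 16.3%. Those 2 were Vgll4 and Vgll2, and the probe of Vgll2 was not well above background in re-adherent cells. Both steps share the non-adherent array, and 11.2% of all genes passed 2-fold downwards and then upwards. Between re-adherent and adherent cells no member was over 2-fold higher, against 4.84% of all genes. The 1 member over 2-fold lower, against 4.9%, was again Vgll2, which was not well above background on either of those arrays. The median log2 difference of the 9 genes was -1.74 into suspension, 1.74 on re-adhesion and -0.05 between the attached states, where the median of all genes was -0.07, 0.08 and 0.06.

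Signals are given in intensity units of the scanner software before scaling between arrays. A log2 difference was taken after each signal was divided by the 75th percentile of its array, which was 651 units in adherent, 697 units in non-adherent and 541 units in re-adherent cells. In the same order, the software's flag for a signal well above background marked 58.1%, 59.9% and 53.9% of spots. Errors of differences combine the software's errors of both spots, had a median of 0.20 on the log2 scale and cover technical error within arrays only. They leave out the spread between cultures, and probes of different sequence cannot be set against each other in level. Since each sample was a mixture of cells, fewer cells of a type and less RNA per cell cannot be told apart.

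**Figure D1:**
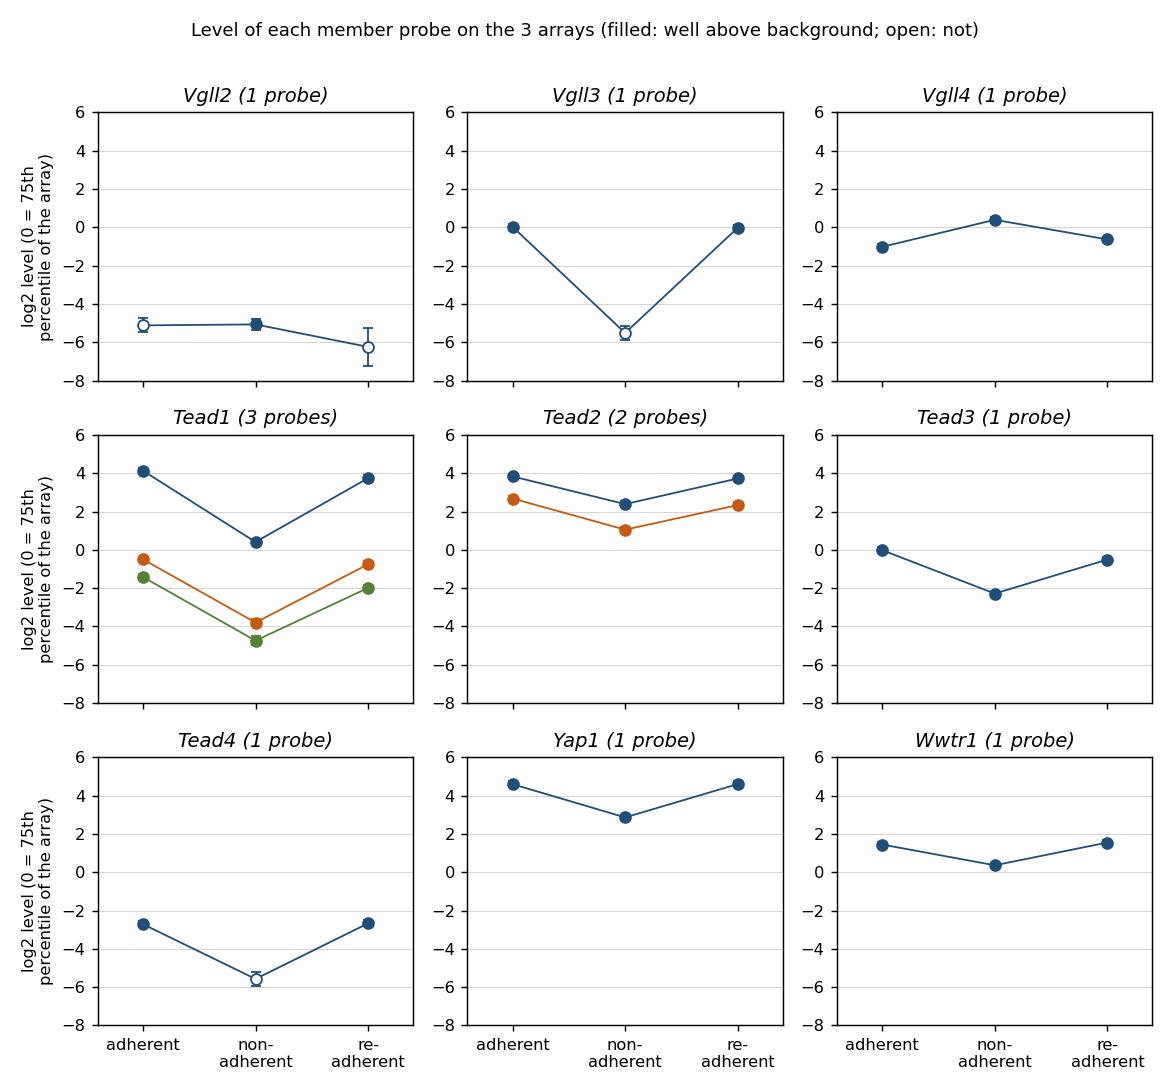
Level of each member probe on the 3 arrays, as log2 of the signal over the 75th percentile of the array (vertical axis), with the software's error as bars; each colour is a probe, filled points were well above background and open points were not. The probes of Vgll3, the Tead genes, Yap1 and Wwtr1 dip on the non-adherent array, that of Vgll4 rises to 916 units there, and Vgll2 lies near background throughout.

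Vgll3 was detected in both attached states and not in suspension. Its probe gave 666 units in adherent cells, 15.2 units in non-adherent cells and 534 units in re-adherent cells. Only the non-adherent signal was not well above background, with a software error of 3.84 units. Taken against that dim signal, Vgll3 was 46.8-fold lower in suspension than in adherent cells and 45.2-fold higher after re-adhesion. These folds are imprecise and are not lower bounds. The attached states differed by a log2 value of -0.05 ± 0.20. Vgll3 was the only member to pass the study's rule of over 16-fold lower and then over 16-fold higher, which 0.806% of genes passed. The study had selected it by this rule on these arrays, together with a rise in infarcted hearts, so its pattern here is not independent evidence. Separately, the study measured the fall and return of Vgll3 by qRT-PCR with replicates. With another background correction, normexp with an added offset, the array log2 differences of Vgll3 were -3.12 and 3.10 in place of -5.55 and 5.50. Vgll3 would then not have passed the 16-fold rule, and Tead1, at -3.62 and 3.22, differed more.

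The bases before the annotated start of Vgll3 transcription are shown because the gene lost most of its signal in suspension and because a recognition sequence of TEAD proteins lies there. The window is chr16:65814939-65815188 of GRCm38.p6, plus strand, from RefSeq, and holds the 250 bases before the start site. Capitals mark the match to GGAATG, or to CATTCC on the other strand, with its first base 63 bases before the start.

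Vgll3: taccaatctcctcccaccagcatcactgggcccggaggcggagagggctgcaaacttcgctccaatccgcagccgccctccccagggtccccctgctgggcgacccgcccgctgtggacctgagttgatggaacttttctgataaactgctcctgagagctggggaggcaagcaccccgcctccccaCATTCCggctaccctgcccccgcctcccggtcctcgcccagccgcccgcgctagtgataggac

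RefSeq promoter windows were at hand for 7 of the 9 members, without Tead1 and Tead4. GGAATG or its reverse complement CATTCC was present in the 250 bases before at least 1 start site of 5 of them, Vgll3, Yap1, Wwtr1, Tead3 and Vgll4, and was not in the windows of Tead2 or Vgll2. For comparison, 14.4% of 27025 genes and 12.6% of 32851 windows of this length held it. The 5 genes held 7 distinct matches, 3 of them before start sites of Tead3. The remaining sites are printed as 30 bases on the strand of the gene, with the match in capitals, since they allow the flanks to be compared. In order, their matches begin 141, 136, 182, 123, 114 and 82 bases before the nearest start site downstream. Coordinates are those of GRCm38.p6.

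Yap1, chr9:8004720-8004749, minus strand: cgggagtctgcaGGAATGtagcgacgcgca
Wwtr1, chr3:57576029-57576058, minus strand: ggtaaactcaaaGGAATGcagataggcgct
Tead3, chr17:28350970-28350999, minus strand: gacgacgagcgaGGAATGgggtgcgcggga
Tead3, chr17:28350706-28350735, minus strand: tccggccgggctCATTCCgtacattccggc
Tead3, chr17:28350697-28350726, minus strand: gctcattccgtaCATTCCggccatccccct
Vgll4, chr6:114969268-114969297, minus strand: cgagtggggtggGGAATGctgagaaatgcc

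The match was present both before genes that were lower in suspension and before Vgll4, which was higher. The Tead3 matches to CATTCC lie side by side, and their printed flanks overlap. The CArG box, the sequence bound by serum response factor, was in none of the windows of the 7 members and in 1.47% of all windows. A match in these letters is a description of the sequence and not evidence of binding.

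All 4 Tead genes were lower in suspension, by unequal amounts. Tead1 had 3 probes, and its brightest gave 11414 units in adherent, 925 units in non-adherent and 7258 units in re-adherent cells. Tead1 was 13.2-fold lower in suspension (log2 difference -3.72 ± 0.20) and higher again after re-adhesion (3.34 ± 0.20). Its other probes gave 462, 50.1 and 321 units and 244, 26.0 and 137 units in the same order, with log2 differences of -3.30 and -3.33 into suspension and 3.04 and 2.76 on re-adhesion. All 3 probes were well above background on every array and agreed in direction at both steps, and Tead1 had the 192nd largest fall of all genes.

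Tead4 was near background in suspension. Its probe gave 99.4 units in adherent cells, 14.6 units in non-adherent cells, where it was not well above background, and 85.2 units in re-adherent cells. Against that dim signal, Tead4 was 7.27-fold lower in suspension and 7.49-fold higher after re-adhesion, and these folds are not lower bounds. The attached states differed by a log2 value of 0.04 ± 0.22. With the normexp correction the log2 differences were -1.15 and 1.25, past 2-fold in both cases.

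Tead3 gave 643, 143 and 380 units in adherent, non-adherent and re-adherent cells. It was 4.82-fold lower in suspension (log2 difference -2.27 ± 0.21) and 3.43-fold higher after re-adhesion (1.78 ± 0.21). Its re-adherent level was below its adherent level by a log2 difference of -0.49 ± 0.21. For Tead1 this gap was -0.57 ± 0.21 on the dimmest probe, -0.39 ± 0.20 on the brightest and -0.26 ± 0.21 on the other.

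Tead2 kept more of its signal in suspension than the other Tead genes. The brighter of its 2 probes gave 9281, 3644 and 7161 units in the same order, and the other gave 4168, 1444 and 2731 units. The log2 differences were -1.45 and -1.63 into suspension and 1.34 and 1.28 on re-adhesion, so both probes showed the dip. On the brighter probes, the difference of Tead1 into suspension minus that of Tead2 was -2.28 ± 0.29 log2 units, and that of Tead2 minus that of Tead3 was 0.82 ± 0.29. Without scaling between arrays, Tead2 on re-adhesion was at 0.97, just short of 2-fold.

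The coactivators Yap1 and Wwtr1 were both lower in suspension and higher after re-adhesion, and the log2 difference of Tead1 minus that of Yap1 was -1.99 ± 0.29 into suspension. Yap1 gave 15799 units in adherent, 5071 units in non-adherent and 13164 units in re-adherent cells. It was 3.33-fold lower in suspension (log2 difference -1.74 ± 0.20) and 3.34-fold higher after re-adhesion (1.74 ± 0.20), and the attached states were at 0.00 ± 0.20 from each other. Wwtr1 gave 1775, 896 and 1586 units, which was 2.12-fold lower in suspension (-1.08 ± 0.20) and 2.28-fold higher after re-adhesion (1.19 ± 0.20). Wwtr1 was the member closest to the 2-fold line among the 7 that dipped. Into suspension it fell short of that line with the authors' own scaling, without scaling and with the normexp correction, at -0.99 in each case. On re-adhesion it fell short with the authors' scaling (0.91), without scaling (0.82) and with scaling to spike-in controls (0.92).

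Vgll4 ran against the other members. Its probe gave 321 units in adherent, 916 units in non-adherent and 350 units in re-adherent cells, all well above background. Vgll4 was 2.66-fold higher in suspension (log2 difference 1.41 ± 0.20) and 2.03-fold lower after re-adhesion (-1.02 ± 0.20), and 13.1% of all genes passed 2-fold upwards and then downwards. Spots around this probe on the slide deviated from the array-wide median by -0.24 and 0.32 at these steps, and with that deviation subtracted Vgll4 was at 1.65 and -1.35. With the normexp correction the second step was at -0.95, short of 2-fold. Re-adherent cells were at 0.39 ± 0.21 relative to adherent cells, and at -0.09, with the opposite sign, when the arrays were scaled to spike-in controls.

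The log2 difference of Vgll4 into suspension minus that of Tead1 was 5.14 ± 0.29, and minus that of Yap1 it was 3.15 ± 0.29. No such value is given against Vgll3, which was not well above background in suspension. These contrasts between members do not depend on a constant scaling factor per array. They were chosen after the values were seen and are given as a description.

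Vgll2 was hardly detected. Its probe gave 18.7 units in adherent cells and 7.15 units in re-adherent cells, neither well above background, and 20.8 units in non-adherent cells, which was well above background. No fold is given for Vgll2, whose level in suspension differed from that in adherent cells by a log2 value of 0.05 ± 0.46 and whose sign there turned under 3 alternatives. Its log2 differences of -1.17 ± 1.02 and -1.12 ± 1.04 counted among the members over 2-fold lower changed sign when dim signals were raised to the background floor, to 0.18 and 0.24. Both probes of Vgll1, the remaining family member, which lies outside the rule, were not well above background on any array.

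By size of the fall into suspension the members were ordered Vgll3, Tead1, Tead4, Tead3, Yap1, Tead2 and Wwtr1. The places of Vgll3 and Tead4 rest on signals that were not well above background in suspension. With the normexp correction the order was Tead1 (-3.62), Vgll3 (-3.12), Tead3 (-1.77), Yap1 (-1.75), Tead2 (-1.37), Tead4 (-1.15) and Wwtr1 (-0.99). The offset in that correction shrinks the differences of dim probes most, so this order depends in part on signal level by construction. Tead2 against Yap1 (0.29 ± 0.29), Tead3 against Yap1 (-0.53 ± 0.29) and Tead2 against Wwtr1 (-0.36 ± 0.29) were separated by less than 2 such errors. On re-adhesion Tead3 and Yap1 could not be separated (0.04 ± 0.29).

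**Figure D2:**
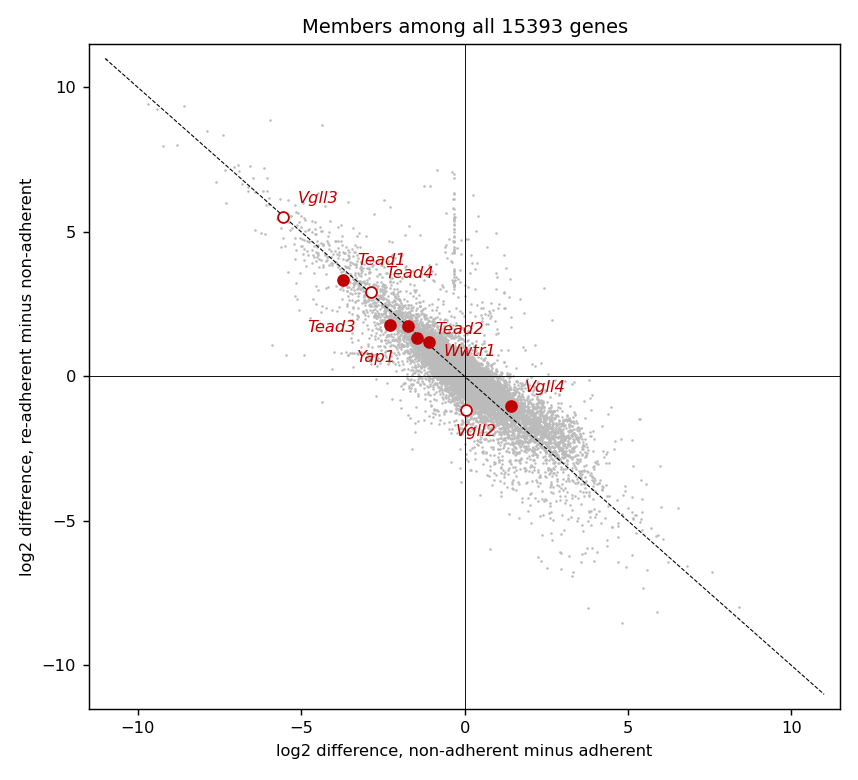
Log2 difference of non-adherent minus adherent cells (horizontal) against re-adherent minus non-adherent cells (vertical) for 15393 genes in grey and the 9 members in red, open where a member was not well above background on all 3 arrays. Both axes share the non-adherent array, which alone tilts points towards the dashed line of full reversal; 7 members lie in the upper left quadrant and Vgll4 and Vgll2 in the lower right, Vgll2 at 0.05 on the horizontal axis.

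Genes that YAP, TAZ and TEAD are known to drive were examined as a list of 22, all of which were measured. In suspension 13 of the 22 were lower by over 2-fold and 3 were higher by over 2-fold, with a median of -1.23, beside 14.7% and 17.2% and a median of -0.07 over all genes. On re-adhesion 11 were over 2-fold higher, against 15.6% of all genes, and 3, or 13.6%, over 2-fold lower, close to the 16.3% of all genes, with a median of 1.20 beside 0.08. The largest fall was that of Ankrd1, a cardiac ankyrin repeat protein and widely used YAP target, at -10.98. Amotl2, an angiomotin family scaffold that binds YAP, was at -5.00, and Crim1, a transmembrane protein that binds growth factors, was at -4.52. Not all targets were lower. Igfbp3, a carrier of insulin-like growth factors, was at 3.76 and Gadd45a, a stress-induced growth arrest gene, at 2.09. Between the attached states 1 target was over 2-fold lower and none was over 2-fold higher, beside 4.9% and 4.84% of all genes. That target was Igfbp3, 4.53-fold lower in re-adherent cells, where it was not well above background.

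The upstream part of the pathway was examined as a list of Hippo kinases and scaffolds. Of 21 genes, all measured, 8 were over 2-fold lower in suspension, against 14.7% of all genes, and none over 2-fold higher, against 17.2%, with a median of -0.61. On re-adhesion 8 were over 2-fold higher, against 15.6%, and 1 over 2-fold lower, against 16.3%, with a median of 0.55. Between the attached states, where 4.9% of all genes were over 2-fold lower and 4.84% higher, no gene of the list passed 2-fold. Those lower in suspension were Amot, Amotl1, Amotl2, Wwc1, Wwc2, Frmd6 and Ptpn14, which are scaffolds or YAP-binding proteins, and the kinase Lats2, and Frmd6 was not well above background there. Amotl2 (-5.00), Wwc1, the gene of the scaffold KIBRA (-3.92), and Amotl1 (-3.26) had the largest falls, and Lats2, a kinase that phosphorylates YAP, was at -1.98. The core kinases Stk3 and Stk4 were at -0.44 and 0.76 and Lats1 at -0.68, all within 2-fold, and Stk38, a kinase related to the LATS kinases, had the largest rise at 0.85. Amotl2, Lats2 and Ptpn14, a phosphatase that binds YAP, stood in both lists, and Ptpn14 was at -2.37.

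**Figure D3:**
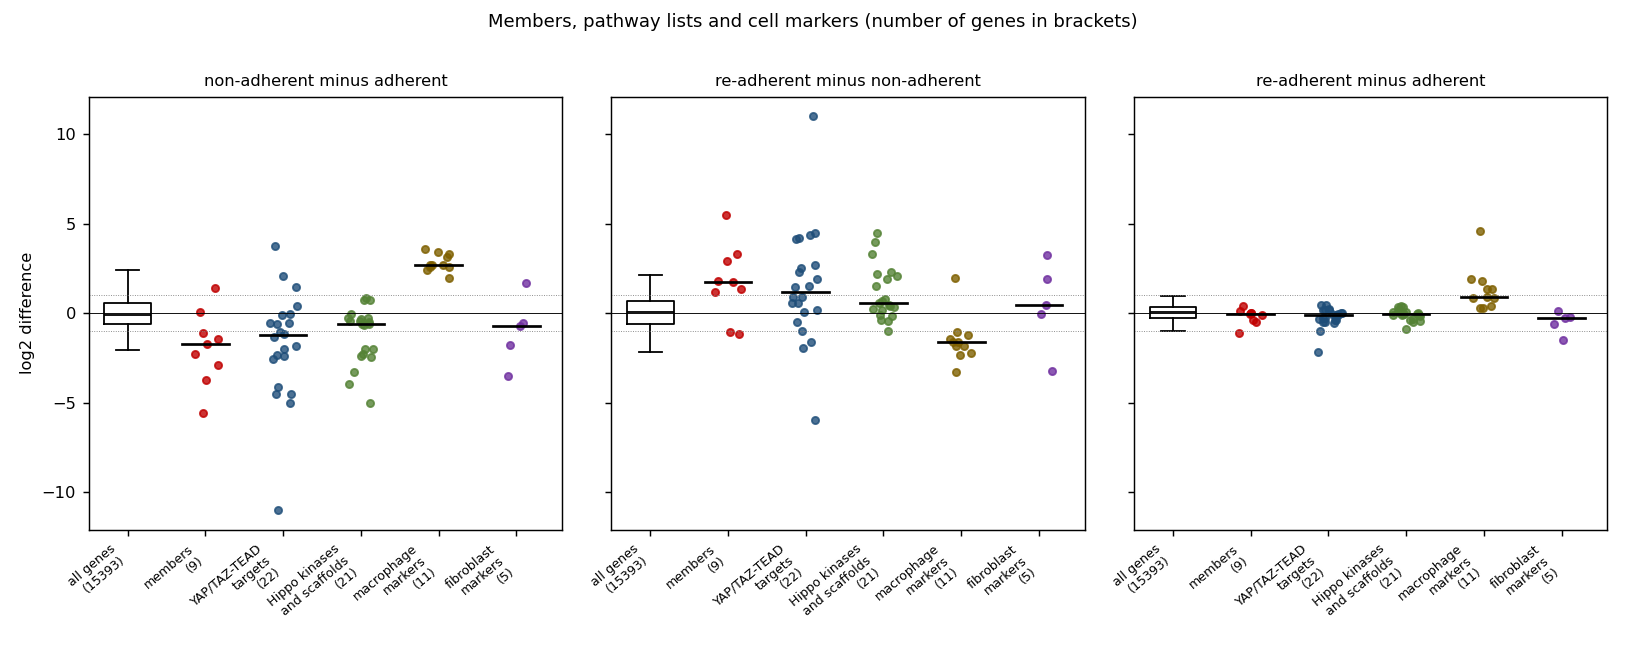
Log2 differences for the 3 comparisons (vertical axis) for all genes, as a box of quartiles with whiskers at percentiles 5 and 95, and for the members, the 2 pathway lists and 2 marker lists, as points per gene with a bar at the median. Members and targets lie mostly below 0 in suspension and above 0 on re-adhesion, macrophage markers lie above 0 in suspension, and the dotted lines mark 2-fold.

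Markers of some other cells moved with the same comparison. Summed over 11 measured macrophage markers, the level in multiples of the 75th percentile of the array was 158 in adherent, 1120 in non-adherent and 348 in re-adherent cells. All 11 were over 2-fold higher in suspension, against 17.2% of all genes, and 10 of 11 were over 2-fold lower after re-adhesion, against 16.3%. The exception was Cx3cr1, at 1.95 on re-adhesion. Ptprc, the gene of CD45, by which cells had been removed, was well above background on every array and at 2.68 into suspension. Of 10 endothelial markers 6 were higher and 1 was lower by over 2-fold in suspension, against 17.2% and 14.7% of all genes. On re-adhesion 8 of these markers were lower and 1 was higher by over 2-fold, against 16.3% and 15.6%, with a median of -2.67. Their sums were 37.3, 42.5 and 39.5, of which Kdr, Eng and Egfl7 made up most. In re-adherent cells 6 of the 10 were over 2-fold lower than in adherent cells, against 4.9% of all genes. Tie1, Emcn and Cldn5 were not well above background in re-adherent cells. Of 8 cardiomyocyte markers 4 were measured, with sums of 1.00, 1.62 and 3.11, of which Tnnt2 made up most (0.91, 1.37 and 3.04). On re-adhesion 3 of the 4 were over 2-fold lower and 1 was higher, against 16.3% and 15.6% of all genes. Actn2, Ryr2, Pln and Ttn were not well above background on any array. Of 4 pericyte markers 2 were over 2-fold higher and 1 was lower in suspension, against 17.2% and 14.7% of all genes. None of 4 epicardial or mesothelial and 3 Schwann markers passed 2-fold there.

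Fibroblast markers, 5 in number, were all well above background on the 3 arrays and summed to 431, 413 and 325. Pdgfra, a receptor that marks fibroblasts, was at -0.55 in suspension and Col1a1, a chain of collagen I, at -0.70, within 2-fold. Thy1 (-3.50) and Tcf21 (-1.75) were over 2-fold lower and Dcn (1.69) over 2-fold higher. The 4 myofibroblast markers summed to 1308, 26.9 and 1334. Acta2, smooth muscle actin, was at -6.64, and Tagln and Cnn1 were also over 2-fold lower in suspension. Postn, a matrix protein of activated fibroblasts, was at -0.12 with levels of 12.1, 11.1 and 10.4. For protein, the study reports that periostin was nearly absent in suspension. Its qRT-PCR with replicates had mRNA of fibrosis genes, Col1a1 among them, falling in suspension and returning. The array values of Postn and Col1a1 come from 1 array per state. The dip of the members thus went together with more macrophage marker signal and less contractile marker signal, and the part of either in the differences of the members was not tested.

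Genes with the most similar pattern were found by the smallest Euclidean distance between log2 levels on the 3 arrays, after each gene's mean was subtracted. For Vgll3, among 13683 genes, they were Cavin2, Tpm2, Mycn, Slco1a5 and Bmpr1b, at distances of 0.05 to 0.18. For Tead1, among 13474 genes, they were Tbx18, Hs6st2, 4930429B21Rik, Tmem200a and Rhobtb3, and for Yap1 they were Tram2, Nckap1, Mmab, Ecscr and Dcbld1. Those nearest to Vgll4 were Fam117a, Galnt12, Hbp1, Ctsd and Ctsa, the last 2 being genes of lysosomal cathepsins. Slco1a5 and Bmpr1b, like Vgll3, were not well above background in suspension.

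The choice of scaling moved the comparisons with re-adherent cells. Scaling to spike-in controls placed the median of all genes at -0.27, -0.19 and -0.41 for the 3 comparisons. Under it, the 8 members other than Vgll2 lay between -0.97 for Tead3 and -0.09 for Vgll4 in re-adherent relative to adherent cells, where the scaling used here gave -0.49 to 0.39. No alternative turned the direction of Vgll3, Vgll4, a Tead gene, Yap1 or Wwtr1 at either step, though the filter on all 3 arrays gave no value for Vgll3 and Tead4.

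**Figure D4:**
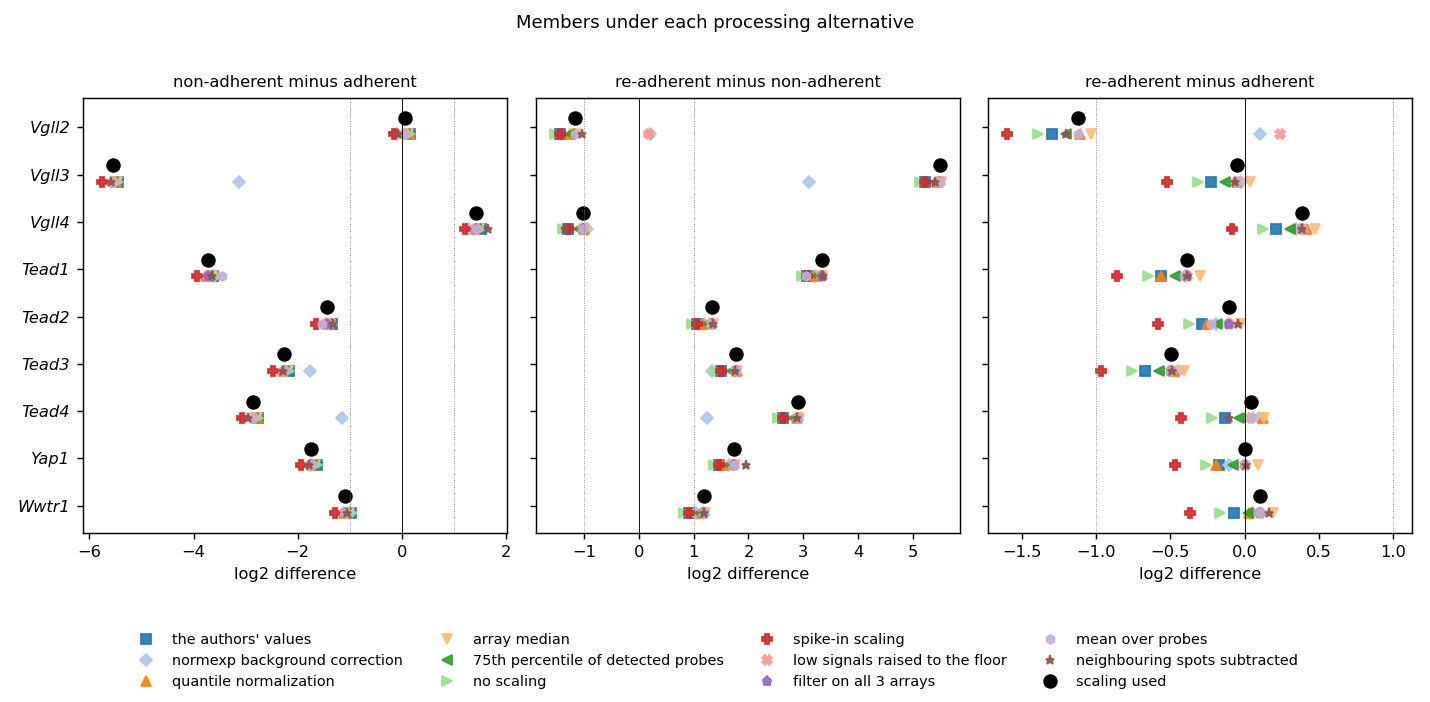
Log2 difference of each member (horizontal axis) in the 3 comparisons under the scaling used (black circles) and under 11 processing alternatives (coloured symbols); dotted lines mark 2-fold. The normexp correction brings Vgll3 to -3.12 and Tead4 to -1.15 in suspension, and spike-in scaling shifts the members downwards between the attached states.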

How the data were processed

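The authors hybridised Cy3-labelled cRNA to 1-colour Agilent SurePrint G3 mouse arrays. The deposited scanner files held spot intensity from Agilent Feature Extraction 10.10.1.1, background-subtracted and spatially detrended on a linear scale. The deposited matrix equalled this intensity times 1 constant per array (1.52, 1.52 and 1.62); its normalisation is not given in the sources used here. All 3 arrays lay on 1 slide and were scanned together.

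Here, 59305 non-control spots were used per array, outlier spots (154, 180 and 175) were left out, and log2 processed intensity was reduced by the 75th percentile of the array. Spots of a probe were averaged. Transcript names were matched, without version, to RefSeq of GRCm38.p6, which named 27229 probes; the array was designed on an earlier build. Probes well above background on at least 1 array entered, and the brightest represented its gene. A difference was called past 2-fold. Where a probe was not well above background, the fold was taken against its own signal. The array's lowest signal well above background (16.7, 14.0 and 18.3 units) was used instead where that was higher. For Vgll3, Tead4 and Igfbp3 the own signal was the higher, so their folds are not lower bounds. Repeated spots of a probe, 10 on the array, gave SDs of log2 differences of 0.06 to 0.08, and probes of 1 gene differed by 0.11 to 0.18. The number of arrays limits the precision. The scripts were tested on simulated data. Alternatives were 11: the authors' values, normexp (offset 50, limma 3.58.1 in R 4.3.3), 5 other scalings, a floor, a stricter filter, the mean over probes and subtraction of neighbouring spots (11 wide). Normexp had been planned on mean spot signals and was run on median spot signals, which the scanner data used here hold. Named pathway genes were the 3 largest falls and 2 largest rises of each list in suspension, if detected on both arrays, and genes in both lists; other pathway and marker genes were named after their values were seen. Members and lists were chosen with earlier results of these data known.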

Additional observations from a re-analysis of the deposited data

How the results depend on the processing

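Over 11 alternatives, 239 of 288 member values stayed within the technical error of the value reported. Another 45 moved further, and 4 past 2-fold changed sign. Small values, within 2-fold, changed sign in 19 cases, 16 of them between the attached states. The 4 sign changes past 2-fold belonged to Vgll2, at 0.19 and 0.11 with normexp and at 0.18 and 0.24 with dim signals raised to the floor, for re-adherent against non-adherent and against adherent cells. The count of members over 2-fold lower on re-adhesion was 0 with normexp and 1 with the floor or with probes above background on all 3 arrays, and between attached states it was 0 under all of these. Relative to all genes, the median of the members was -1.67 in suspension and 1.66 on re-adhesion, against -1.31 and 1.11 with normexp and 1.42 under the stricter filter. That of the targets was -1.16 and 1.12, against -1.38 with the mean over probes, 1.37 under the stricter filter and 0.91 with neighbouring spots subtracted. Vgll3 was at -3.12 and 3.10 with normexp, and at -0.32 without scaling and -0.52 with spike-in scaling between attached states. Leaving out scaling or scaling to spike-in controls changes each array by a constant, so all genes moved alike. The median of all genes between attached states went from 0.06 to -0.20 without scaling and to -0.41 with spike-in scaling. The offset in normexp shrinks the differences of dim probes most by construction, and Vgll3 was dim in suspension. The cause of the other shifts was not tested. The stricter filter gave no value for Vgll2, Vgll3 or Tead4. No paired analysis was possible because each state had 1 array, and no array could be left out. Vgll2 and the non-adherent levels of Vgll3 and Tead4 are limited by signal over background.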
